A study of Homo sapiens with 6 samples.

Results

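The 53 genes described here are the cyclins, the cyclin-dependent kinases (CDKs) and their inhibitors, the E2F transcription factors with their pocket protein partners, and the factors that license DNA for replication. They were taken by gene symbol from a table of 16720 named genes, by a rule that uses no measured value. Of the 53, 38 act around the passage from G1 into S phase (G1/S members), 14 act in G2 and mitosis (G2/M members), and CDK7, the kinase that activates other CDKs, serves both. RNA was sequenced from Hep3B, a human hepatocellular carcinoma (HCC) cell line, with 3 libraries from cells carrying a control guide (sgControl, genotype WT) and 3 from cells carrying a guide against RFX6, a winged helix transcription factor (sgRFX6, RFX6-KO). For the RFX6 guides the paper describes lentiviral Cas9 delivery, puromycin selection and the picking of clones grown from single cells. It lists a control guide but does not say whether control cells were cloned. A group may thus descend from 1 clone. The columns of all 3 sgRFX6 libraries carry the name sg3, which is 1 of 3 RFX6 guides that the paper lists. Effects particular to this guide cannot be told apart from those of RFX6 loss. The sources used here do not say which clones were sequenced, or whether the 3 libraries of a group came from separate cultures, so the p-values measure only the spread between these libraries, which may be technical.

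Cells pass from G1 into S phase when D- and E-type cyclins with their CDKs phosphorylate the pocket proteins, which releases E2F factors to switch on genes for DNA synthesis. Licensing, the loading of the MCM helicase onto origins by CDC6 and CDT1, takes place in G1 and is kept from repeating by geminin (GMNN). Cyclin B with CDK1 then drives mitosis together with the Aurora and Polo-like kinases, and proliferating tumour cells express most of these genes in a phase-dependent way.

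The libraries held 16730374 to 25070770 counts, at which 3 counts, the floor used here, correspond to 0.122 to 0.189 CPM (counts scaled to a common library size, after the TMM method of edgeR). The targeted gene RFX6 gave 117, 144 and 170 counts in control libraries 1 to 3, and 69, 59 and 77 in those of the knockout. The groups did not overlap, and the log2 fold change of sgRFX6 over sgControl was -0.82 (standard error 0.26, adjusted p = 0.142), which did not pass the threshold of 0.05. A count over the whole gene does not show whether the coding frame was disrupted. The paper reports a check of its RFX6-KO cells at the protein level by western blotting, and by real-time PCR. Of the liver markers, ALB was measured at 12.9 to 32.1 CPM in sgControl and 18.4 to 26.2 CPM in sgRFX6, while TTR stayed under 1 CPM in all 6 libraries. Of the 8 liver markers 2 passed the test, in opposite directions: AFP rose (1.58 to 2.31 CPM in sgControl, 9.98 to 17.2 CPM in sgRFX6, log2 fold change 2.82, adjusted p = 0.00254), and FGB fell (22.4 to 34.4 CPM in sgControl, 3.39 to 6.45 CPM in sgRFX6, log2 fold change -2.45, adjusted p = 0.00417). The summed CPM of all 8 ranged from 112 to 145 in sgControl and from 68.6 to 111 in sgRFX6, and their part in the results below was not tested. The blood and endothelial markers CD3E, HBB and KDR had at most 3 counts in any library, and the sum of the 5 blood markers (72.9 to 158 CPM in sgControl, 62.8 to 100.5 CPM in sgRFX6) was nearly all CD68. The endothelial marker PECAM1 was measured at 11.4 to 12.9 CPM in sgControl and 13.2 to 19.3 CPM in sgRFX6 (log2 fold change 0.46, adjusted p = 0.401), and VWF was at 0.0454 to 0.561 CPM. Of the 5 fibroblast markers 4 were tested and 2 passed. COL1A1 was at 4.78 to 5.45 CPM in sgControl and 0.909 to 1.70 CPM in sgRFX6. COL1A2 was at 1.82 to 1.93 CPM and 0.0993 to 0.182 CPM. DCN and PDGFRB stayed under 1 CPM in all 6 libraries. The sum of the 5 ranged from 24.5 to 33.1 CPM and from 21.3 to 56.2 CPM. Most of it was LUM, whose groups overlapped, at 16.75 to 24.95 CPM and 19.47 to 54.74 CPM. In bulk RNA of this kind, fewer cells in a phase and less RNA per cell cannot be told apart.

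The promoters of the members carried short motifs whose shares differed between the phases and that did not enter the choice of genes. RefSeq windows from 250 bases before to 50 bases after the transcription start (GRCh38.p14) were at hand for 42 members and were searched on both strands, with overlapping matches counted once per gene. An E2F site (TTTCGCGC, TTTGGCGC or TTTCCCGC) lay in 14 of 29 G1/S members (48.3%), in 1 of 12 G2/M members (8.33%) and in 3.3% of 27305 RefSeq symbols. The cell cycle homology region (CHR, TTTGAA), known from genes of G2 and mitosis, lay in 7 of 12 G2/M members (58.3%), in 2 of 29 G1/S members (6.9%) and in 18.2% of all symbols. The short letters GTTGCC, part of the X-box that RFX proteins are known to bind, were found in 5 of the 42 members (11.9%) and in 14.6% of all symbols. A match is a description of these letters and not evidence of binding. Windows of 30 bases show the site in its setting for 7 G1/S members, taken from the activators, pocket proteins, CDK2 activators, licensing factors and the replication clamp, and for 5 G2/M members with a CHR. They are written 5′ to 3′ on the strand that carries the motif, with 1 match per window in capitals, and the E2F sites come first. The RBL1 window holds a further match (TTTCGCGC) in lower case before the marked one. In the MCM6 window a match on the other strand (TTTGGCGC) overlaps the marked one.
E2F1, chr20:33686387-33686416, minus strand: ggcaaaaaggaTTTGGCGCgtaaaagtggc
RBL1, chr20:37095995-37096024, minus strand: ttttcgcgcgcTTTGGCGCaggtggttgtg
CDC25A, chr3:48188443-48188472, minus strand: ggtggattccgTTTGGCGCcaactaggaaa
MCM6, chr2:135876511-135876540, plus strand: ggagctggagaTTTCGCGCcaaacctgacc
MCM7, chr7:100101388-100101417, minus strand: ggggggcgacgTTTCGCGCcaatttcggtt
CDT1, chr16:88803743-88803772, minus strand: ttcccgccaaaTTTCCCGCgggcgccctgg
PCNA, chr20:5126663-5126692, plus strand: aacgcacgcctTTTCCCGCccctgacgctg
CDK1, chr10:60778453-60778482, plus strand: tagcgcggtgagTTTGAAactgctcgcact
CCNB2, chr15:59105105-59105134, plus strand: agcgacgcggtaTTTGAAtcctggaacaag
PLK1, chr16:23678848-23678877, plus strand: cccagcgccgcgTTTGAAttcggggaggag
MKI67, chr10:128126435-128126464, minus strand: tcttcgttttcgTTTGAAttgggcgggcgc
CDC25C, chr5:138331817-138331846, minus strand: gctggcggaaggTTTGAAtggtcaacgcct

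To ask whether RFX6-KO cells differed from their controls in these genes, sgRFX6 was compared with sgControl by edgeR's quasi-likelihood test over all 12839 genes with enough counts, with p-values adjusted by the Benjamini-Hochberg method. Of the 53 members 52 could be tested, and the other, the D-type cyclin CCND2, was at or under the floor in every library, with raw counts of 0, 2 and 0 against 1, 0 and 1. None of the 52 passed an adjusted p of 0.05, against 3.74% of all genes tested. At an unadjusted p under 0.05 there were 5 of 52 members (9.62%) against 15.6% of all genes, and DESeq2 called 0 of 52 members against 6.44% of the genes it tested. The log2 fold changes ran from -0.81 for CDK1 to 0.77 for CDKN1C, with 24 above 0 and 28 below, where 52.7% of all genes lay above 0. The median was 0.02 for the G1/S members, -0.05 for the G2/M members and 0.02 for all genes. The 3 libraries of each group did not overlap for 8 of the 52 members (15.4%), fewer than the 23.1% of all genes. Of these 8, only E2F5 was higher in sgRFX6 (12.0% of all genes were), and CDKN1B, CDKN2A, CDKN2B, CDKN2C, CCNB2, CDC25C and AURKB were lower (11.2% of all genes were). As a share of the 52 members, those called were under the whole table, those without overlap were under it in all, and the 7 lower members were near it. Without sgControl library 2 the median of the G1/S members was -0.17.

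**Figure D1:**
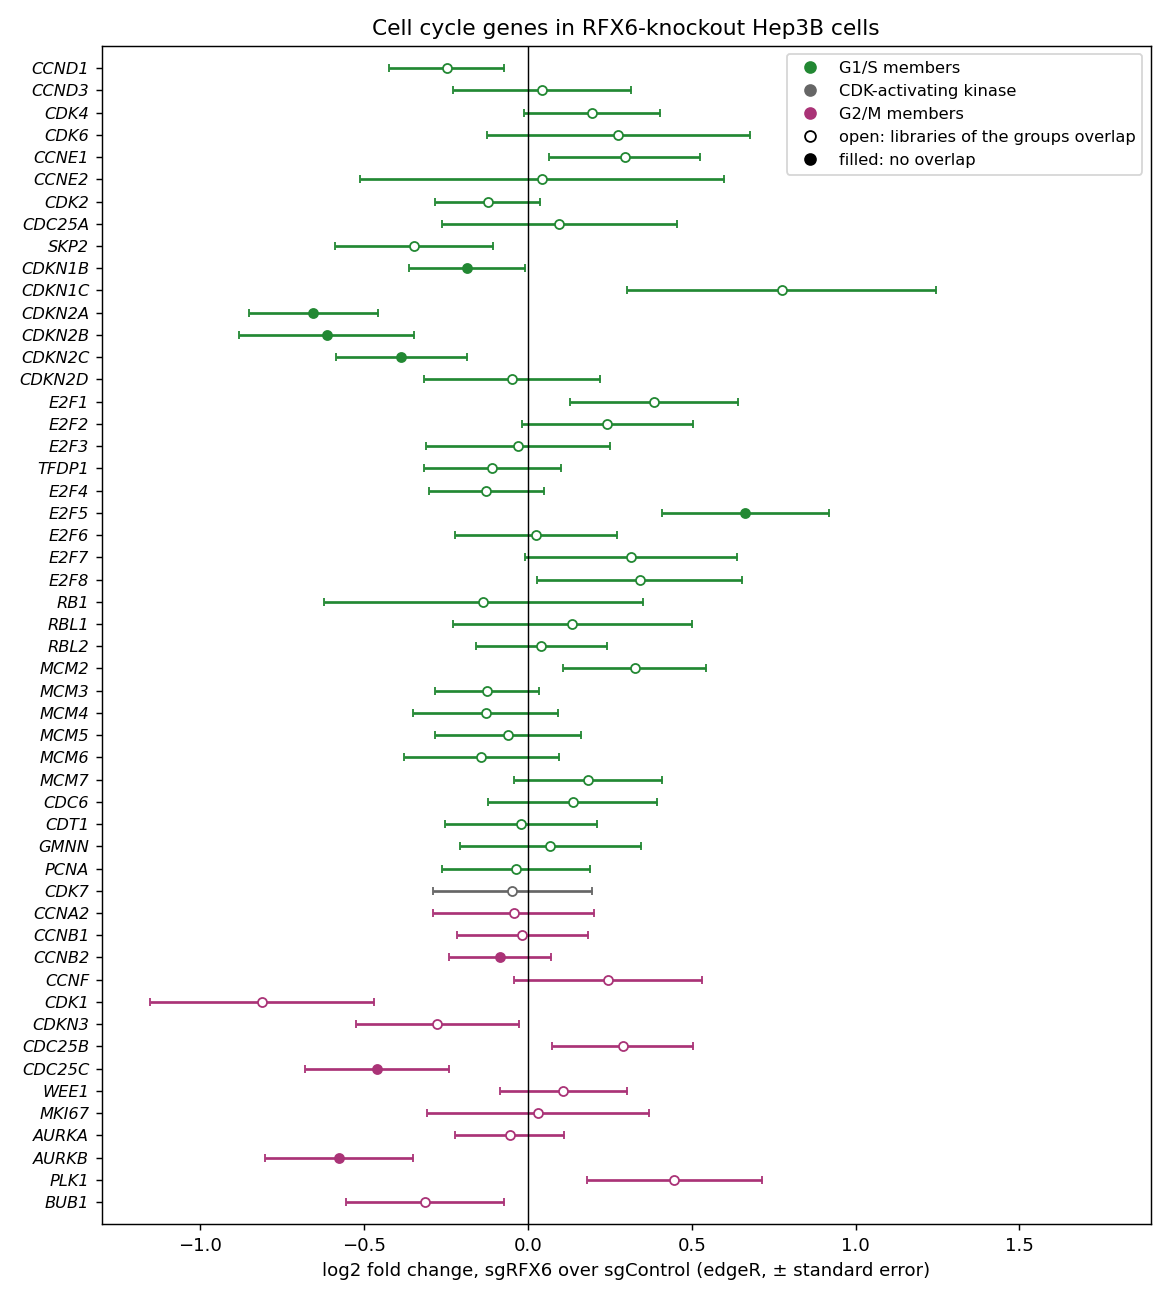
The plot gives the log2 fold change of sgRFX6 over sgControl (horizontal axis, edgeR) with its standard error for the 52 tested members, ordered by role from the D-type cyclins at the top to the mitotic kinases at the bottom. Filled points mark the 8 members whose 3 libraries per group did not overlap, 1 to the right of 0 and 7 to the left, and no member passed the adjusted threshold.

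Among the members of G1, cyclin D1 (CCND1), which couples growth signals to CDK4 and CDK6, measured 282, 217 and 237 CPM in sgControl and 230, 181 and 209 CPM in sgRFX6. The groups overlapped, with a log2 fold change of -0.25 (SE 0.18, adjusted p = 0.58). CDK4 measured 338, 306 and 375 CPM against 421, 457 and 290 CPM, so that sgRFX6 library 3 was the lowest of all 6 and the other sgRFX6 libraries were the highest (log2 fold change 0.20, adjusted p = 0.746). CDK6 showed the opposite arrangement, with 93.4, 49.4 and 69.1 CPM in sgControl and 56.6, 53.7 and 146 CPM in sgRFX6, where library 3 alone exceeded every control. Its log2 fold change of 0.28 (SE 0.40, adjusted p = 0.837) became -0.35 without that library. CCND3 had a log2 fold change of 0.04. The annotated span of CDK4 overlaps that of TSPAN31 on the other strand. Spans of CCNE2, CDK2, RBL2, MCM2, MCM7, CCNA2 and PLK1 likewise overlap other rows on the opposite strand. The strand setting of the counting is not given in the sources used here.

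Cyclin E1 (CCNE1), the partner of CDK2 at the start of S phase, was at 13.5, 17.9 and 16.3 CPM in sgControl and 21.9, 20.9 and 15.8 CPM in sgRFX6, with library 3 again the exception (log2 fold change 0.29, SE 0.23, adjusted p = 0.626). Its paralogue CCNE2 was at 12.7, 4.74 and 10.3 CPM against 4.52, 5.66 and 18.2 CPM, the widest replicate spread of the 52 tested members in sgRFX6 (coefficient of variation 80.3%). Its log2 fold change was 0.04 with a standard error of 0.56, and -0.85 without sgRFX6 library 3. CDK2 varied little, at 67.0, 61.9 and 71.4 CPM against 64.4, 61.3 and 58.2 CPM (log2 fold change -0.12, adjusted p = 0.813). CDC25A, the phosphatase that activates CDK2, had a log2 fold change of 0.10, and SKP2, which targets the inhibitor p27 for degradation, one of -0.35 (adjusted p = 0.571). CDK7 had a log2 fold change of -0.05.

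Of the 6 CDK inhibitors, 4 had groups without overlap, all lower in sgRFX6, where 11.2% of all genes were, and none passed the adjusted test. After adjustment for GC content 3 were lower without overlap (16.2% of all genes were), since the CDKN2C values then overlapped. CDKN2A, which encodes the CDK4 and CDK6 inhibitor p16 and, from another reading frame, ARF (chr9:21967753-21995301, GRCh38), measured 102, 131 and 108 CPM in sgControl and 81.4, 78.6 and 57.3 CPM in sgRFX6. Every sgRFX6 library lay under every control. The mean was 72.4 ± 13.2 CPM (SD, n = 3) against 114 ± 15.5 CPM. The log2 fold change was -0.65 (SE 0.20, unadjusted p = 0.00897, adjusted p = 0.125). Its neighbour CDKN2B (p15; chr9:22002903-22009363) measured 26.2, 14.4 and 19.4 CPM against 14.01, 11.4 and 13.8 CPM. The groups were separated by a narrow margin, from 14.42 down to 14.01 CPM, and the log2 fold change was -0.61 (SE 0.27, adjusted p = 0.313). CDKN2C (p18) measured 29.2, 25.4 and 31.9 CPM against 21.3, 24.1 and 20.9 CPM (log2 fold change -0.39, adjusted p = 0.414). CDKN1B (p27) measured 44.8, 42.9 and 45.1 CPM against 40.6, 34.7 and 41.3 CPM (log2 fold change -0.19, adjusted p = 0.712). For CDKN2D (p19) the groups overlapped, at a log2 fold change of -0.05. CDKN1C (p57) was scarce, with raw counts of 11, 6 and 7 against 13, 7 and 16 for sgRFX6, and its log2 fold change of 0.77 had the wide standard error of 0.47 (adjusted p = 0.501). The median of the 6 inhibitors was -0.29. The 50 tested genes nearest to CDKN2A and to CDKN2B had a median log2 fold change of -0.04 in each case, and no other row of the count table overlapped either gene.

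The E2F factors divide into activators and repressors of S phase genes. E2F1, the best known activator, measured 92.6, 67.3 and 113 CPM in sgControl and 111, 155 and 89.4 CPM in sgRFX6, with overlapping groups (log2 fold change 0.38, SE 0.26, adjusted p = 0.551). The other activators E2F2 and E2F3 and the partner subunit TFDP1 had log2 fold changes of 0.24, -0.03 and -0.11. Among the repressors, E2F5 measured 8.72, 6.03 and 7.25 CPM in sgControl and 10.1, 11.0 and 13.7 CPM in sgRFX6. Every sgRFX6 library exceeded every control, at 11.6 ± 1.87 CPM against 7.34 ± 1.35 CPM (SD, n = 3). The log2 fold change was 0.66 (SE 0.25, unadjusted p = 0.0285, adjusted p = 0.237). The row C8orf59 overlaps E2F5 on the other strand. The atypical repressors E2F7 and E2F8 had log2 fold changes of 0.31 and 0.34, E2F6 had 0.02 and E2F4 had -0.13, and the median of the 5 repressors was 0.31. With limma's voom the values of E2F7, E2F8 and E2F6 turned to -0.04, -0.11 and -0.09, and the median to -0.09. The 15 members with an E2F site in the promoter window had a median log2 fold change of 0.07, and the 27 without one -0.05.

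The pocket proteins hold E2F factors inactive until CDKs phosphorylate them. RB1, whose product Hep3B is known to lack in functional form, was measured at 7.999, 3.73 and 5.44 CPM in sgControl and 2.88, 3.33 and 9.31 CPM in sgRFX6. The log2 fold change was -0.14 with a standard error of 0.49 (adjusted p = 0.945), since sgRFX6 library 3 was above all controls and the other 2 sgRFX6 libraries were below them. The rows LPAR6 and RCBTB2 of the table overlap RB1. Without that library the log2 fold change was -0.87. RBL1 was likewise highest in library 3 within sgRFX6, at 33.4, 33.1 and 71.8 CPM (log2 fold change 0.13), and RBL2 had a log2 fold change of 0.04.

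The licensing factors stayed within a narrow range, from -0.14 for MCM6 to 0.33 for MCM2, with a median of -0.02 over 9 genes. MCM2, a subunit of the replicative helicase, measured 287, 280 and 371 CPM in sgControl and 410, 472 and 295 CPM in sgRFX6 (SE 0.22, adjusted p = 0.55). MCM7 measured 954, 817 and 1111 CPM against 1116, 1334 and 821 CPM (log2 fold change 0.18, adjusted p = 0.796). In both, sgRFX6 libraries 1 and 2 were above every control and library 3 lay among them. MCM3, MCM4 and MCM5 had log2 fold changes of -0.13, -0.13 and -0.06. MCM4 was the most even tested member in sgRFX6, at 521, 540 and 528 CPM (coefficient of variation 1.84%), whereas in sgControl it ranged from 399 to 675 CPM. CDC6 measured 88.7, 47.6 and 88.5 CPM against 75.6, 74.4 and 97.1 CPM (log2 fold change 0.14, adjusted p = 0.883). CDT1 and GMNN had log2 fold changes of -0.02 and 0.07. PCNA, the sliding clamp of the replication fork, measured 280, 164 and 286 CPM against 235, 230 and 246 CPM, with control library 2 apart from the rest (log2 fold change -0.04, adjusted p = 0.968).

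Of the mitotic cyclins and their kinase, CDK1 (chr10:60778331-60794852, GRCh38) had the lowest log2 fold change of all members. It measured 89.2, 48.7 and 72.4 CPM in sgControl and 28.4, 29.9 and 61.5 CPM in sgRFX6. Libraries 1 and 2 of sgRFX6 lay under every control, while library 3 lay between the controls, so the groups overlapped. The log2 fold change was -0.81 (SE 0.34, unadjusted p = 0.0426, adjusted p = 0.295). Without sgRFX6 library 3 it was -1.26 and passed (adjusted p = 0.0346), the only member of 52 to do so, where 5.52% of all genes were called. Over 15 alternative analyses its log2 fold change stayed between -1.34 and -0.60, with an adjusted p from 9.92e-05 to 0.609. Its cyclin partners had log2 fold changes nearer to 0. Cyclin A2 (CCNA2) measured 106, 66.2 and 99.9 CPM against 80.1, 71.1 and 113 CPM (log2 fold change -0.04). Cyclin B1 (CCNB1) measured 147, 96.1 and 148 CPM against 132, 136 and 119 CPM (log2 fold change -0.02, adjusted p = 0.983). Cyclin B2 (CCNB2) was the most even tested member in sgControl, at 62.1, 63.3 and 64.1 CPM against 60.3, 60.2 and 58.1 CPM, so that its groups did not overlap although the log2 fold change was only -0.08 (adjusted p = 0.878). CCNF had a log2 fold change of 0.24.

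CDK1 is held inactive by the kinase WEE1 and activated by the CDC25 phosphatases. CDC25C measured 14.5, 13.8 and 12.8 CPM in sgControl and 11.2, 9.74 and 8.95 CPM in sgRFX6 without overlap (log2 fold change -0.46, SE 0.22, adjusted p = 0.37). The row FAM53C overlaps it on the other strand. CDC25B had a log2 fold change of the other sign, 0.29 (adjusted p = 0.601). WEE1 measured 48.2, 41.8 and 44.2 CPM against 48.4, 40.2 and 56.1 CPM (log2 fold change 0.11, adjusted p = 0.873). CDKN3, a phosphatase that acts on CDKs, had a log2 fold change of -0.28.

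Of the mitotic kinases, AURKB, the kinase of the chromosomal passenger complex (chr17:8204733-8210600), measured 99.7, 128 and 122 CPM in sgControl and 84.8, 94.4 and 55.2 CPM in sgRFX6. All sgRFX6 libraries were under all controls, at 78.1 ± 20.4 CPM against 116 ± 14.8 CPM (SD, n = 3). The log2 fold change was -0.58 (SE 0.23, unadjusted p = 0.0313, adjusted p = 0.248). PLK1 had a value of the other sign, with 263, 180 and 307 CPM against 351, 431 and 240 CPM (log2 fold change 0.45, SE 0.27, adjusted p = 0.49). The 50 tested genes nearest to PLK1 had a median log2 fold change of 0.43, close to its own value. The same was seen for MCM2 (0.33, neighbours 0.35), E2F8 (0.34, neighbours 0.36) and CCNF (0.24, neighbours 0.25). It was not seen for E2F1 (0.38, neighbours 0.08), CDC25B (0.29, neighbours -0.07) or WEE1 (0.11, neighbours 0.33). CCND1 (-0.25) had the opposite sign to its neighbours (0.36). Not all members are listed here. A part of the surrounding region in these values was not tested. AURKA measured 136, 106 and 138 CPM against 123, 120 and 124 CPM (log2 fold change -0.06, adjusted p = 0.932), and BUB1, a checkpoint kinase, had a log2 fold change of -0.31. MKI67, which encodes the proliferation marker Ki67, measured 440, 297 and 395 CPM in sgControl and 317, 229 and 611 CPM in sgRFX6. The highest and the lowest of its 6 values were both from sgRFX6, and the log2 fold change was 0.03 (SE 0.34, adjusted p = 0.981), or -0.46 without sgRFX6 library 3. The 9 members with a CHR in the promoter window had a median log2 fold change of -0.03, and the 33 without one -0.02.

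**Figure D2:**
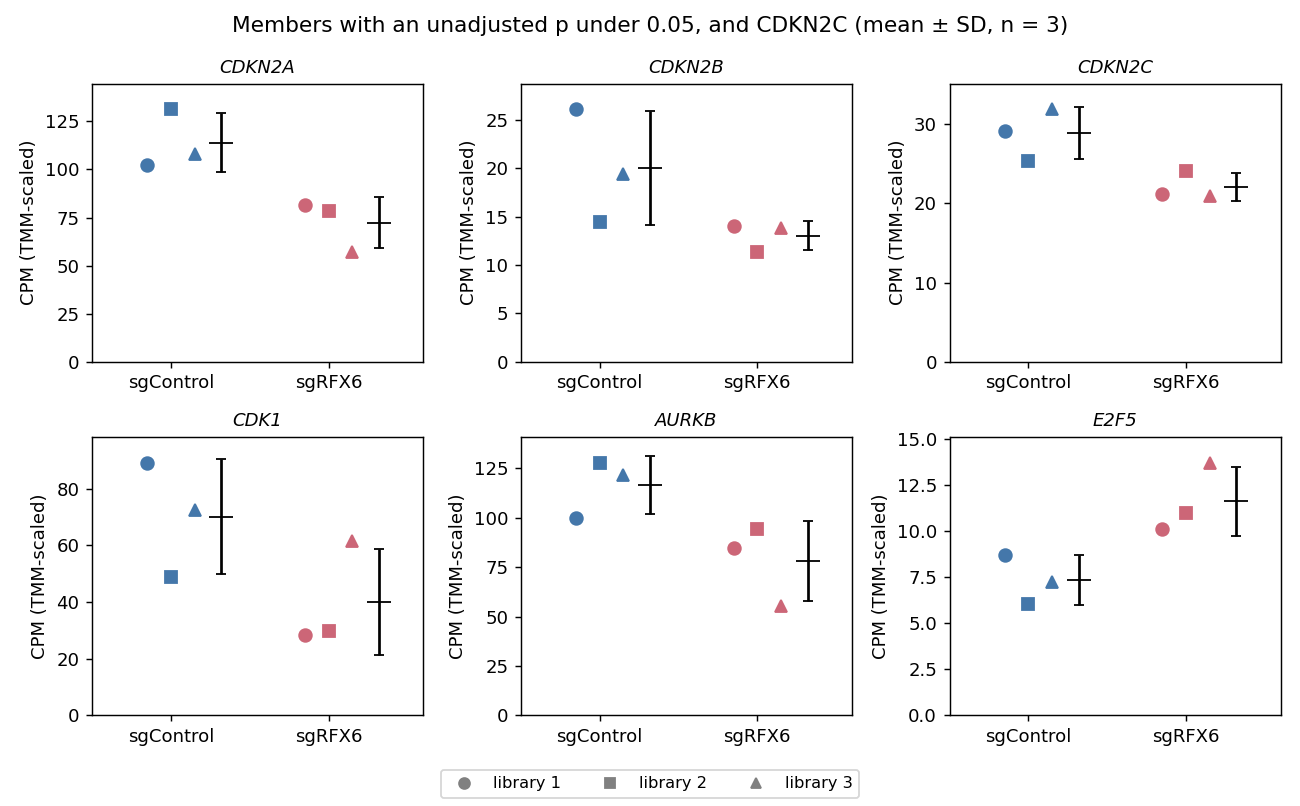
The panels show CPM in each library for the 5 members with an unadjusted p under 0.05 and for CDKN2C, with the mean ± SD of each group (n = 3) in black. Symbols mark library number, and whether the numbers pair the groups is not known. The groups are apart in 5 panels, while sgRFX6 library 3 of CDK1 (61.5 CPM) lies within the control range.

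The spread among replicates in the members was above that of all genes in sgControl and below it in sgRFX6. The median coefficient of variation over the 52 tested members was 18.3% in sgControl and 19.3% in sgRFX6, against 17.0% and 22.2% over all genes tested. Over the 10314 tested genes of at least 5 CPM it was 14.9% and 20.8%. For the G1/S members the median was 20.8% and 17.9%, and for the G2/M members 15.2% and 25.6%. Among the tested members in sgControl, the lowest value was that of CCNB2 (1.61%) and the highest that of CDC25A (46.6%). Within each group 1 library stood apart. In sgControl library 2, 4 of 37 G1/S members and 3 of 14 G2/M members were above the mean of the 3 controls. The median deviations were -0.31 and -0.25 on the log2 scale. The matching share over all genes was not counted, so whether this is particular to the members is not known. The summed CPM of the G1/S members was 3834 in that library and 4896 and 5280 in the others, and that of the G2/M members 1554 against 2006 and 2059. In sgRFX6 the sums of the G1/S members were 4833, 5282 and 4266 CPM and those of the G2/M members 1947, 2031 and 1976 CPM, within or near the control range.

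**Figure D3:**
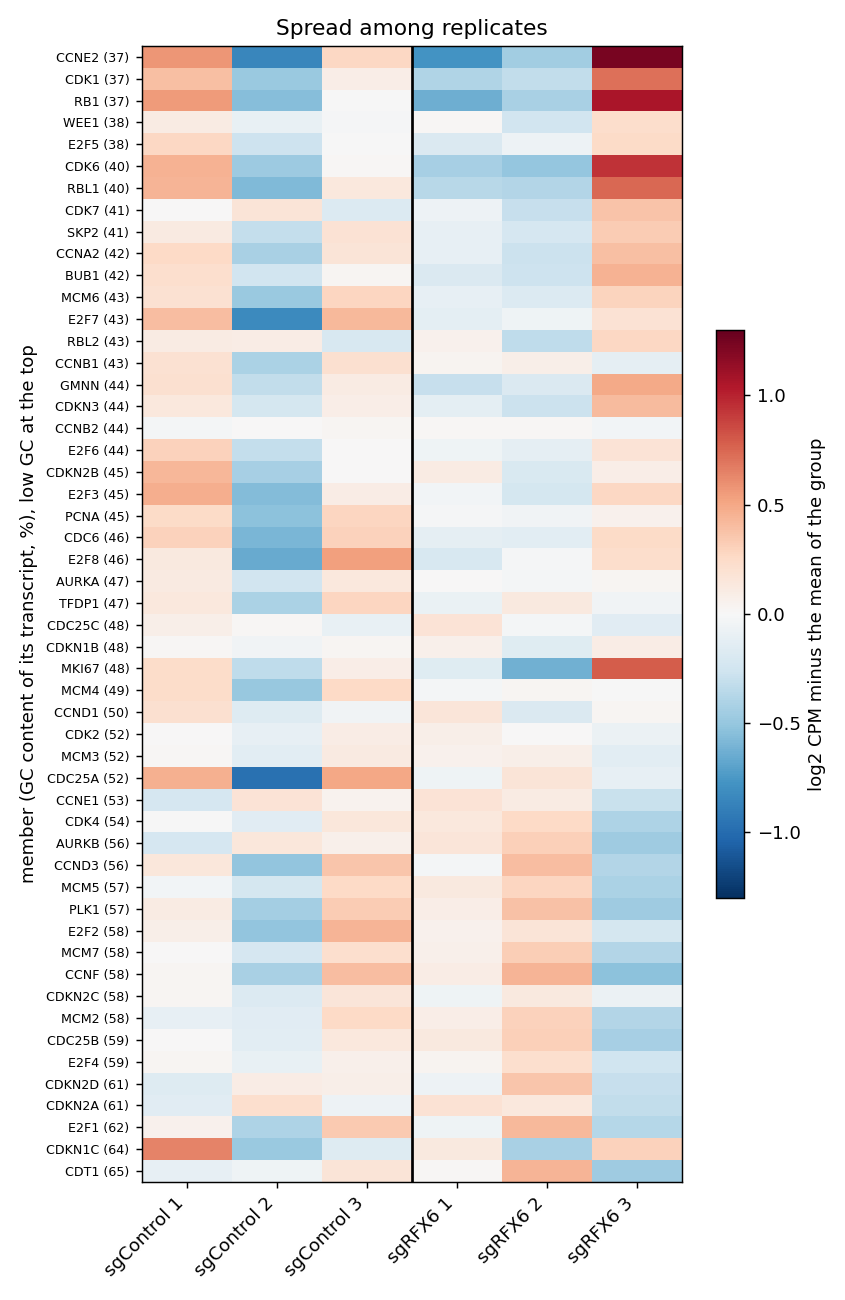
The heat map shows, for each tested member (rows, from low GC content at the top to high at the bottom) and each library (columns), the log2 CPM minus the mean of its own group. The column of sgControl library 2 is mostly below its group mean, and that of sgRFX6 library 3 passes from above the mean at low GC content to below it at high GC content.

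In sgRFX6 the deviations of library 3 ran with GC content in both phases. Of the 30 members whose transcript had a GC content under 50%, 24 were higher in sgRFX6 library 3 than in both other sgRFX6 libraries, among them CCNE2, RB1, CDK6, RBL1 and CDK1. Of the 22 members at 50% or more, 20 were lower in it than in both others, among them CDT1, E2F1, PLK1, AURKB and MCM7. Spearman's rho between a member's deviation and its GC content was -0.82 in that library, 0.65 and 0.78 in the other sgRFX6 libraries, and -0.60, 0.33 and 0.21 in sgControl libraries 1 to 3. These describe 52 genes that share a library, and over all genes the value for sgRFX6 library 3 was -0.85. MKI67 was high in that library for its GC content of 48.3%.

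**Figure D4:**
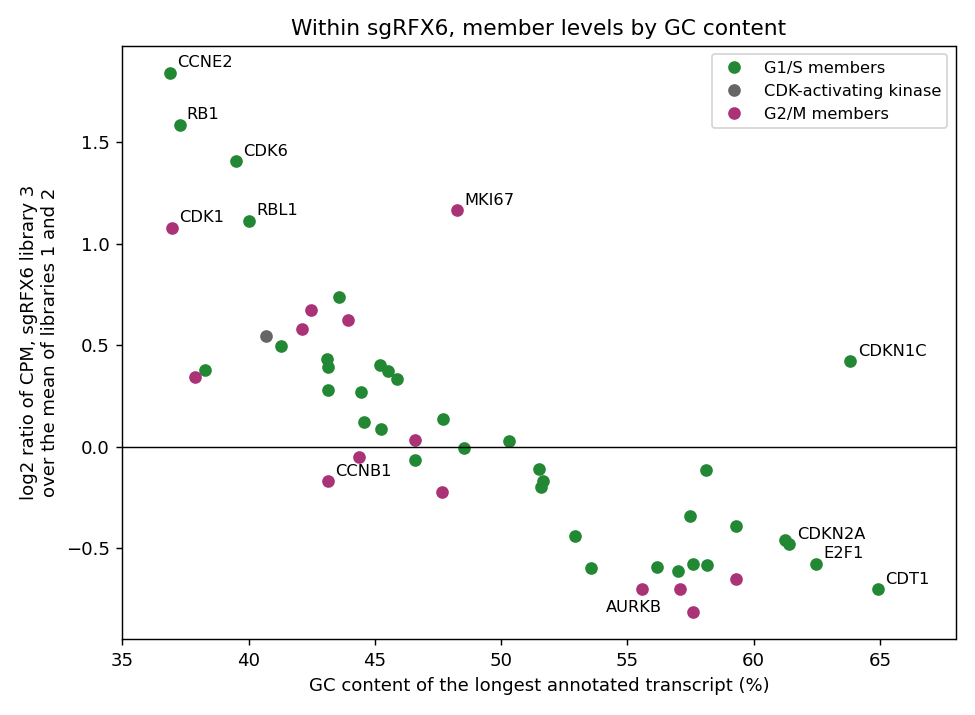
Each point is a tested member, with the GC content of its longest annotated transcript on the horizontal axis and the log2 ratio of CPM in sgRFX6 library 3 over the mean of libraries 1 and 2 on the vertical axis. G1/S and G2/M members lie along 1 falling course, from 1.84 for CCNE2 at 36.9% GC to -0.70 for CDT1 at 64.9%, with MKI67 and the scarce CDKN1C above it.

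The trend of each library with GC content was then removed by offsets in edgeR. The median SD of the members' log2 values fell from 0.28 to 0.14 in sgRFX6, where 40 of 52 members became more even. It stayed at 0.27 in sgControl, where 24 did. Over the 12002 tested genes with GC content, the median SD fell from 0.32 to 0.17 in sgRFX6, where 9172 became more even. In sgControl it fell from 0.24 to 0.21, where 7187 did. With the GC offsets 3 of 52 members passed, all lower in sgRFX6, against 11.5% of all genes. They were CDK1 (log2 fold change -0.92, SE 0.13, adjusted p = 0.00506), CDKN2A (-0.62, SE 0.11, adjusted p = 0.0113) and AURKB (-0.57, SE 0.11, adjusted p = 0.017). For CDK1, whose groups overlapped before, the GC-adjusted log2 CPM no longer did, at 6.22, 5.91 and 6.24 in sgControl against 5.08, 5.28 and 5.26 in sgRFX6. For 13 of 52 members the adjusted values did not overlap, against 34.1% of all genes. The 5 higher in sgRFX6 (17.8% of all genes were) were CCNE1, E2F5, CDC25B, MCM2 and PLK1, and the 8 lower (16.2% of all genes were) were CDK1, CDKN1B, CDKN2A, CDKN2B, CDC25C, SKP2, AURKB and BUB1. With limma's voom and library weights, which gave sgRFX6 library 3 the lowest weight (0.168) and sgControl library 2 the next lowest (0.292), 14 of 52 members passed against 31.1% of all genes. They were CCNE1, E2F5 and CDC25B above 0, and AURKB, BUB1, CCNE2, CDK1, CDKN2A, CDKN2B, CDKN2C, CDKN3, MCM6, RB1 and SKP2 below 0. All 14 had the same sign with GC offsets, but only CDK1, CDKN2A and AURKB passed there. With those offsets CCNE2, RB1 and MCM6 were at -0.16, -0.30 and -0.16 (adjusted p = 0.813, 0.52 and 0.606). The voom fit removed no GC trend, and the part of that trend in its calls was not tested. In the other alternatives none of the 52 members passed, where the share of all genes was 3.77% with DESeq2-type size factors in edgeR, 3.72% with library size alone, 3.26% without the filter, 3.69% with a minimum of 1 CPM in 3 libraries and 5.05% with the replicate number as a block. With the block and GC offsets together 1 member passed, CDK1, against 5.19% of all genes. Without sgControl library 1, 2 or 3 none passed, against 2.34%, 3.05% and 1.62%, and likewise without sgRFX6 library 1 or 2, against 1.66% and 2.32%. In each of these fits the share of the 52 members called was under that of all genes. Of the 14 G2/M members alone, 14.3% passed with GC offsets and 35.7% with voom, slightly above all genes, and of the 37 G1/S members 2.70% and 24.3%.

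Compared per kilobase of annotated exon, the most abundant members were MCM7 at 234 ± 45.8 CPM per kb (mean and SD of 6 libraries), PCNA at 163 ± 30.04, CDK4 at 115 ± 20.7 and CDC25B at 108 ± 22.8 CPM per kb. CDK4 and CDC25B were measured in the same 6 libraries, so these SDs do not measure the difference between them. In sgControl the means were 107 and 97.2 CPM per kb, and in sgRFX6 123 and 119 CPM per kb. The inhibitor CDKN2A was at 21.5 ± 6.03 CPM per kb, RB1 at 0.844 ± 0.413 CPM per kb, and CDKN1C at 0.194 and CCND2 at 0.0041 CPM per kb closed the order.

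Further cell cycle genes outside the members gave a similar picture. None of 21 origin firing factors, 14 CDK partners and ubiquitin ligase subunits, 8 subunits and regulators of the MuvB complexes, 29 S phase genes or 44 G2 and M phase genes passed in edgeR. Their median log2 fold changes were 0.10, -0.06, -0.23, 0.11 and 0.00, with 21 of the 29 S phase genes above 0. With voom the medians of the origin firing factors, the S phase genes and the G2 and M phase genes turned to -0.31, -0.31 and -0.25. At an unadjusted p under 0.05 the lists held 0, 3, 1, 1 and 1 genes, or 0%, 21.4%, 12.5%, 3.45% and 2.27%, against 15.6% of all genes. With GC offsets, 1 S phase gene was higher (3.45% of the list) and 2 G2 and M phase genes were lower (4.55%) in sgRFX6, against 11.5% of all genes called. DESeq2 called none of any of these lists. Voom called 28.6%, 21.4%, 37.5%, 27.6% and 20.5% of them, against 31.1% of all genes.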

How the data were processed

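The authors extracted total RNA of Hep3B cells by Trizol and had cDNA libraries read on an Illumina platform. They deposited raw counts per gene in a single table (16721 rows, 1 column per library). Their processing notes name the build GRCh38 (hg38), while the aligner, the counting program and the annotation are not given in the sources used here. The control columns are named cas without a guide and were taken as sgControl, the only control group. The knockout columns are named sg3 and were taken as sgRFX6. One row without a gene name (at most 9.17e-05% of a library's counts) was left out.

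The analysis of the counts used edgeR 4.0.16 (R 4.3.3). Low genes were removed by filterByExpr (minimum count 10, minimum total 15), libraries were scaled by TMM, and sgRFX6 was compared with sgControl over all 6 libraries by the quasi-likelihood test without covariates. P-values were adjusted over all 12839 genes. A standard error is the absolute log2 fold change divided by the root of the F statistic. The common biological coefficient of variation was 0.269. The scripts were tested on simulated data. There the main fit recovered 46.5% of 2-fold and 91.75% of 4-fold changes, and 4.93% of its calls were false. The simulated libraries held no trend with GC content, so these shares may not hold for the real ones.

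The members and the other gene lists were chosen with earlier results of these data known, so they are not independent of them. Per-library values were given by rule for members called, for members without overlap and an absolute log2 fold change of at least 0.5, and for 21 genes set for their roles. Other members are named with their values as well. Gene positions, exon lengths and GC content came from GENCODE 29 (GRCh38), which matched 15423 row names and gave GC content for 12002 tested genes. The GC offsets removed a loess trend (span 0.3) of each library's log2 CPM (prior count 2). Alternatives were other size factors, other filters, DESeq2 1.42.0, limma 3.58.1 (voom with quality weights), GC offsets, a replicate block and leaving out each library. Deviations of same-numbered libraries correlated at -0.41, 0.17 and -0.09. These values cannot decide whether the numbers pair the groups, since the deviations also carry each library's trend with GC content. Libraries of 1 group differed by 16.9 to 122 times the sampling noise (chi-square per degree of freedom), so none was a plain repeat of another's reads. This does not show that they came from separate cultures. The floors cover counting error only, while the standard errors and SDs also carry the spread between libraries.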

Additional observations from a re-analysis of the deposited data

How the results depend on the processing

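Over 15 alternatives, the count of members called stayed at 0 except for 14 with voom, 3 with GC offsets, 1 with GC offsets and the replicate block, and 0 to 1 when 1 library was left out. For the 37 tested G1/S members it was 9 with voom (24.3%, against 31.1% of all genes) and 1 with GC offsets (2.70%, against 11.5%), and 0 in the others. For the 14 G2/M members it was 5 with voom (35.7%), 2 with GC offsets (14.3%), 1 with GC offsets and the replicate block, and 0 to 1 without 1 library. Over all genes 480 were called, against 908 with DESeq2, 3998 with voom, 1379 with GC offsets and 212 to 718 without 1 library. The replicate block called 648 genes and 0 members. Since it is not known whether the numbers pair the libraries, the block is given only as an alternative. The median log2 fold change of the G1/S members ranged from -0.17, without sgControl library 2, to 0.17, without sgControl library 1. That of the G2/M members was -0.23 with voom and ranged from -0.19 to 0.05 without 1 library.

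Several log2 fold changes changed sign, and the cause was not tested. With voom 11 of 52 members did: CCNE2 was at -1.06, CDK6 at -0.34, CDC6 at -0.17, MKI67 at -0.40, RBL1 at -0.41, GMNN at -0.32, CDC25A at -0.19, CCND3 at -0.15, E2F8 at -0.11, E2F6 at -0.09 and E2F7 at -0.04. With the replicate block, CCNB1 was at 0.0074, CCNE2 at -0.11, PCNA at 0.0061 and MKI67 at -0.076. With GC offsets, CCNE2 was at -0.16, and with the block added CCNE2 was at -0.18 and MKI67 at -0.083. With a minimum of 1 CPM in 3 libraries, CCNB1 was at 0.017 and PCNA at 0.00075. Without 1 library, the ranges were -0.26 to 0.084 for CCNA2, -0.20 to 0.11 for CCNB1, -0.85 to 0.38 for CCNE2, -0.35 to 0.53 for CDK6, -0.87 to 0.18 for RB1, -0.0099 to 0.22 for WEE1, -0.35 to 0.033 for MCM6, -0.11 to 0.31 for CDC6, -0.26 to 0.13 for PCNA, -0.46 to 0.29 for MKI67 and -0.17 to 0.04 for AURKA. The negative ends for CCNE2, CDK6, RB1, WEE1 and MKI67 were those without sgRFX6 library 3. CDKN2A kept its sign in all 15, from -0.75 to -0.43 (adjusted p from 0.00867 to 0.28), as did AURKB, from -0.74 to -0.37 (0.0157 to 0.516), CDKN2B, from -0.80 to -0.37 (0.0164 to 0.689), and E2F5, from 0.47 to 0.80 (0.0395 to 0.512). At 0 to 2 counts a library, CCND2 could not be compared. For the 52 tested members, a p that misses the threshold does not show that they did not differ.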
